A study of Mus musculus with 23 samples.

Results

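The genes of the ephrin, semaphorin, SLIT and Notch families were examined in mouse mammary carcinomas treated with abemaciclib or vehicle. They were taken by gene symbol: Eph receptors and ephrins, semaphorins 3 to 7 with their plexin and neuropilin receptors, Robo and Slit1 to Slit3, the Notch receptors, and the ligands Jag1, Jag2 and Dll. The symbols matched 31 of the 3826 genes on the panel: 12 Eph receptors, 3 ephrins, 2 neuropilins, 1 plexin, 3 semaphorins, Slit2 with Robo1, 4 Notch ligands and 4 Notch receptors. A level of expression high enough for testing was reached by 26 of the 31. Epha5, Epha8, Dll1, Dll3 and Sema3b were set aside for low counts, and Jag2, Robo4 and the other semaphorins and plexins were not on the panel.

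These families pass signals between touching or neighbouring cells. Ephrins are membrane-anchored ligands that signal into the cell bearing the Eph receptor and also back into their own cell, and they set boundaries between tissue layers, in the mammary duct among other places. Semaphorins signal through plexins, with neuropilins as co-receptors for the secreted class, and Slit proteins signal through Robo receptors. All guide growing axons and act also in blood vessels, epithelium and tumours. A Notch receptor bound by a Jagged or Delta-like ligand on an adjacent cell is cut by proteases, and the freed part enters the nucleus, binds RBPJ and switches on genes such as Hes1 and Hey1. In the mammary gland Notch signalling bears on the choice of the luminal fate, and in vessels Dll4 and Notch4 act on sprouting.

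The samples were 23 tumours, 11 from mice given control vehicle and 12 from mice given abemaciclib, an oral drug that inhibits CDK4 and CDK6, kinases that drive cells into division, at 90 mg/kg each day by gavage. Both groups carried tumours induced with doxycycline from the age of 6 weeks and were randomized when tumours were established, and tissue was frozen after the 12th dose. The labels used here give neither strain, sex and age at sampling nor the doxycycline-driven transgene and the cell type it is expressed in. Tumours are numbered without an animal being named, so some may come from the same mouse, and p-values measure the spread between these tumours. RNA was read with 1 short amplicon for each gene, and total counts per library ranged over 3044380 to 4492736 (control) and 2756919 to 4990391 (abemaciclib). Because amplicons differ in efficiency, levels, given as CPM (counts scaled to a common library total), are compared between tumours for 1 gene and not between genes.

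The tissue held epithelial markers and also markers of other cells that use these genes. The 12 luminal markers on the panel summed to 6531 to 9280 CPM in control tumours and 5617 to 12328 CPM under abemaciclib. Of the 11 tested, 4 had positive and 7 negative differences. Epcam, an epithelial surface protein, was at 791 to 1758 CPM in control tumours and at 838 to 1406 CPM under abemaciclib. The 7 macrophage markers on the panel all had positive differences (abemaciclib over control), 4 of them at an unadjusted p under 0.05, with summed levels of 1447 to 3031 CPM in control tumours and 1920 to 4564 CPM under abemaciclib. All 13 markers of dividing cells had negative differences at an unadjusted p under 0.05, with summed levels of 431 to 2283 CPM in control tumours and 96.0 to 1467 CPM under abemaciclib. Of the 10 endothelial markers, 8 were positive and 2 negative, and summed levels were 593 to 1038 CPM and 469 to 1015 CPM. All 6 basal and myoepithelial markers were positive (median 0.57), as were 9 of 10 markers of fibroblasts and perivascular cells (median 0.38). None in these 2 lists had an unadjusted p under 0.05 by edgeR. The nerve markers were mixed: Sox10 was at 720 to 1647 CPM in control tumours while S100b and Mbp did not exceed 3.21 CPM in any tumour. With Ngfr, the 4 markers on the panel summed to 1271 to 3064 CPM in control tumours and 1298 to 4831 CPM under abemaciclib. Nearly all of that sum was thus Sox10 and Ngfr. Abemaciclib tumours 3 and 10 were known from earlier results to stand apart from their group, so several differences are also given without them.

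The comparison asked which of these genes differ after CDK4 and CDK6 inhibition, and none of the 26 differed past the threshold after adjustment over all 2925 genes tested. By edgeR's quasi-likelihood test with Benjamini-Hochberg adjustment at 0.05, 0 of 26 genes were called, as were 0% of all genes tested. At an unadjusted p under 0.05, Plxna1 and Nrp1 were higher, beside 7.59% of all genes, and Ephb3 was lower, beside 5.81% of all genes. These shares are close to those among all genes. DESeq2's Wald test called 0 of the 26, beside 2.05% of all genes. With limma-voom and quality weights, 1 of the 26 was called lower (Ephb3), beside 2.39% of all genes, and 0 were called higher, beside 1.95%. Fitted log2 fold changes (abemaciclib over control) were positive for 15 and negative for 11 of the 26, with a median of 0.03 beside 0.01 for all genes tested. In none of the 26 were the ranges of the 2 groups apart. The share of all genes tested with ranges apart was not counted, so this is not read as particular to the 26. In bulk tissue, fewer cells of a type and less RNA per cell cannot be told apart, which holds for every difference given here.

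**Figure D1:**
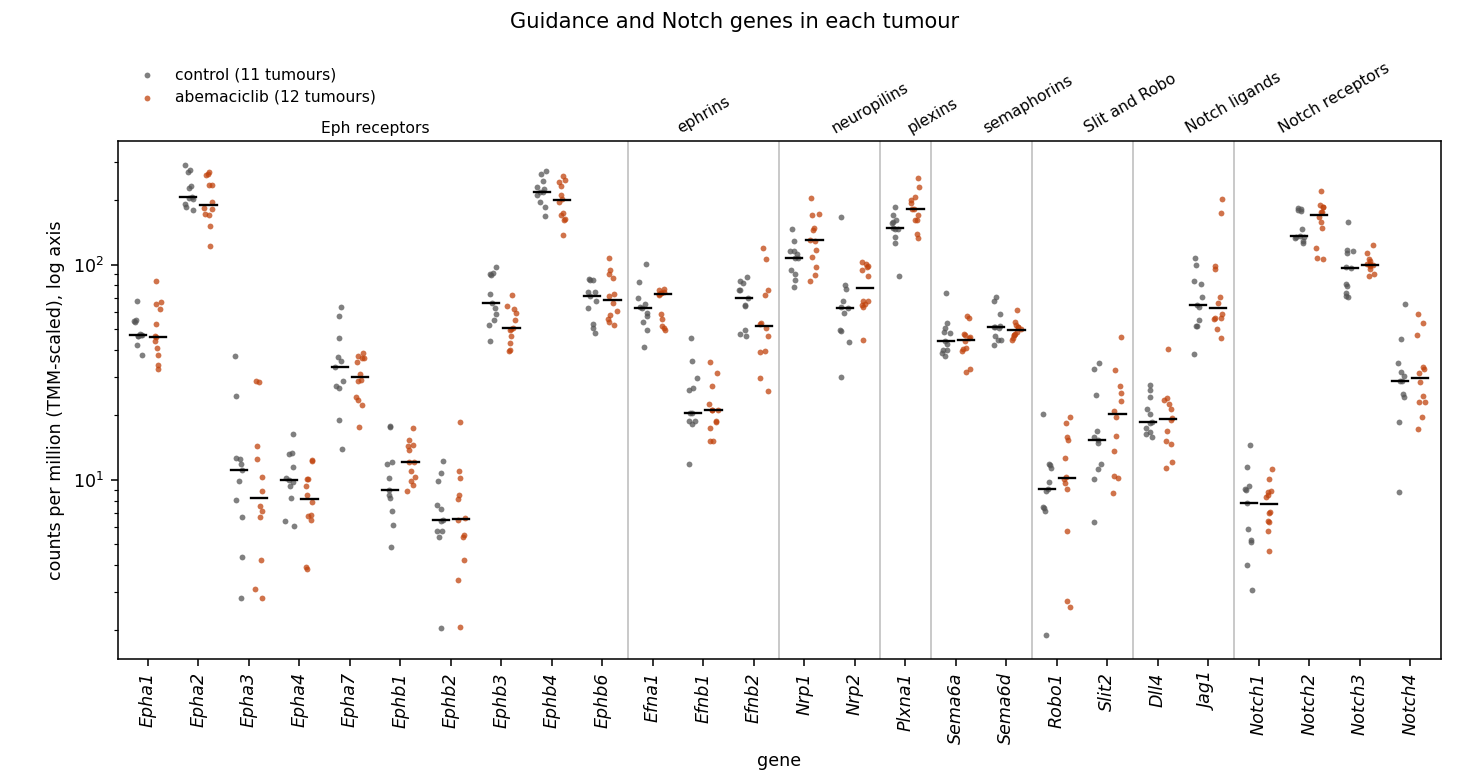
TMM-scaled CPM on a log axis for the 26 tested genes, by family. Each point is 1 tumour (11 control, 12 abemaciclib) and each bar is a group's median. The groups overlap for every gene, Ephb3 lies lower and Plxna1 and Nrp1 higher in abemaciclib tumours, and for Jag1 a pair of abemaciclib tumours stands above the rest.

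The Eph receptors, receptor tyrosine kinases for ephrins, held the gene with the smallest p of the 26. Ephb3, a receptor for B-class ephrins at chr16:21204755-21223305 on GRCm38, ran from 44.4 CPM through a median of 66.0 to 97.3 CPM in control tumours. In abemaciclib tumours Ephb3 ran from 39.6 CPM through a median of 50.6 to 71.9 CPM. Of the 12 abemaciclib tumours, 11 were below the control median and 3 were below every control tumour. The log2 fold change was -0.43 (SE 0.14, 95% confidence interval -0.71 to -0.15), with an unadjusted p of 0.004 and an adjusted p of 0.146 by edgeR. The adjusted p was 0.091 by DESeq2, and 0.0386 by limma-voom at a log2 fold change of -0.50. The limma-voom call did not rest on all tumours equally. When each tumour was left out in turn, Ephb3 was called in 13 of 23 fits, with adjusted p from 0.0174 to 0.0989 and log2 fold changes from -0.57 to -0.42. The 10 fits that lost the call were those without control tumour 3, 4, 6, 9 or 11 or abemaciclib tumour 1, 6, 7, 8 or 11. The 250 bases before the RefSeq start of Ephb3 are shown as the promoter of the 1 gene of the 26 that a test over all 23 tumours called. The position given above is from GENCODE and starts earlier, so the last bases of the window overlap it. The window held none of the 3 motifs searched, which are described with the promoters further on.

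Ephb3 (chr16:21204545-21204794, + strand): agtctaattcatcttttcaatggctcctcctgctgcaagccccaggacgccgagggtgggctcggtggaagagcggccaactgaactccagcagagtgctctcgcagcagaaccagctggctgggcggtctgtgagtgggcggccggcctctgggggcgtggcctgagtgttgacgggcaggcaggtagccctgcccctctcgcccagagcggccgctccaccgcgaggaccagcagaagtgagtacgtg

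The other 9 tested Eph receptors did not pass an unadjusted p of 0.05 by edgeR, with log2 fold changes from -0.34 to 0.27 over all 23 tumours. Epha4, which binds ephrins of both classes, ran from 6.06 CPM through 10.0 to 16.2 CPM in control tumours and from 3.85 CPM through 8.16 to 12.4 CPM under abemaciclib. Its difference was -0.34 (SE 0.21, adjusted p = 0.496), with 2 abemaciclib tumours below every control tumour and the rest among them. By limma-voom Epha4 was at -0.56 (unadjusted p = 0.013, adjusted p = 0.139), and without tumours 3 and 10 it was at -0.46 by edgeR, where its unadjusted p was under 0.05 (adjusted p = 0.279). Ephb1, another B-class receptor, ran from 4.84 CPM through 8.95 to 17.8 CPM in control tumours and from 8.88 CPM through 12.1 to 17.4 CPM under abemaciclib. There, 11 of 12 abemaciclib tumours lay above the control median but none lay above every control tumour, and the difference was 0.27 (SE 0.20, adjusted p = 0.589). Epha2, a receptor studied in mammary epithelium and its tumours, ran from 179 CPM through 207 to 292 CPM and from 122 CPM through 190 to 269 CPM. Ephb4, the receptor that meets ephrin-B2 at the border of veins and arteries, ran from 169 CPM through 217 to 273 CPM and from 137 CPM through 199 to 260 CPM. Both were measured closely, and their intervals were -0.40 to 0.11 for Epha2 and -0.37 to 0.07 for Ephb4. Epha7 had a difference of -0.22 (SE 0.21), with the abemaciclib tumours at 17.6 to 38.7 CPM inside the control range of 13.9 to 63.5 CPM. Ephb6, which has a kinase domain without activity, was at 48.0 to 85.9 CPM in control tumours and 52.3 to 107 CPM under abemaciclib, 4 of which exceeded every control tumour, and its difference was 0.07 (SE 0.14). Epha1 at 0.04 (SE 0.15) and Ephb2 at 0.06 (SE 0.29) were near 0. Epha3 was the most scattered, at 2.81 to 37.5 CPM in control tumours and 2.83 to 28.7 CPM under abemaciclib, and its interval was -1.03 to 0.65, so a difference of that size was not detectable at this spread. Without tumours 3 and 10 Epha3 was at -0.75 (adjusted p = 0.310), and Ephb2 was at -0.27 (adjusted p = 0.653). Epha5 had at most 30 counts in a control tumour and 3 in an abemaciclib tumour, and Epha8 at most 1 count in any tumour.

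All 3 ephrins on the panel were tested and none passed. Efna1, an A-class ephrin held by a lipid anchor, ran from 41.6 CPM through 62.7 to 101 CPM in control tumours and from 49.7 CPM through 72.8 to 76.9 CPM under abemaciclib, a difference of 0.03 (SE 0.13). Its abemaciclib tumours lay inside the control range. Efnb1, a transmembrane B-class ephrin, ran from 11.9 CPM through 20.5 to 45.7 CPM and from 15.1 CPM through 21.0 to 35.3 CPM, a difference of -0.16 (SE 0.19) that was -0.33 (adjusted p = 0.380 by edgeR) without tumours 3 and 10. Efnb2, the B-class ephrin of arterial endothelium, ran from 46.6 CPM through 69.8 to 87.3 CPM in control tumours and from 26.0 CPM through 51.8 to 119 CPM under abemaciclib. Its treated tumours spread past the control range on both sides: 5 were below every control tumour, and tumours 3 and 10, at 106 and 119 CPM, were above every one. The Efnb2 difference was -0.20 (SE 0.21, adjusted p = 0.722) with all tumours and -0.49 (adjusted p = 0.128) without those 2, both by edgeR. By limma-voom, Efnb2 was at -0.45 (adjusted p = 0.167) with all tumours, -0.54 (adjusted p = 0.0482) without tumour 3 and -0.63 (adjusted p = 0.0118) without tumours 3 and 10. Without tumour 3, limma-voom called 166 of 2914 genes tested, 2 of the 26 among them (Efnb2 and Ephb3). Without tumours 3 and 10 it called 230 of 2924, 3 of the 26 among them (Efnb2, Ephb3 and Nrp1). Leaving out the highest treated values of Efnb2 lowers its difference in any case. Tumours 3 and 10 were the 2 highest abemaciclib tumours for 6 of the 26 genes, namely Efnb1, Efnb2, Epha3, Ephb1, Ephb2 and Jag1, a count made after seeing the values. How many of all genes tested share this trait was not counted, so it is not read as particular to the 26.

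**Figure D2:**
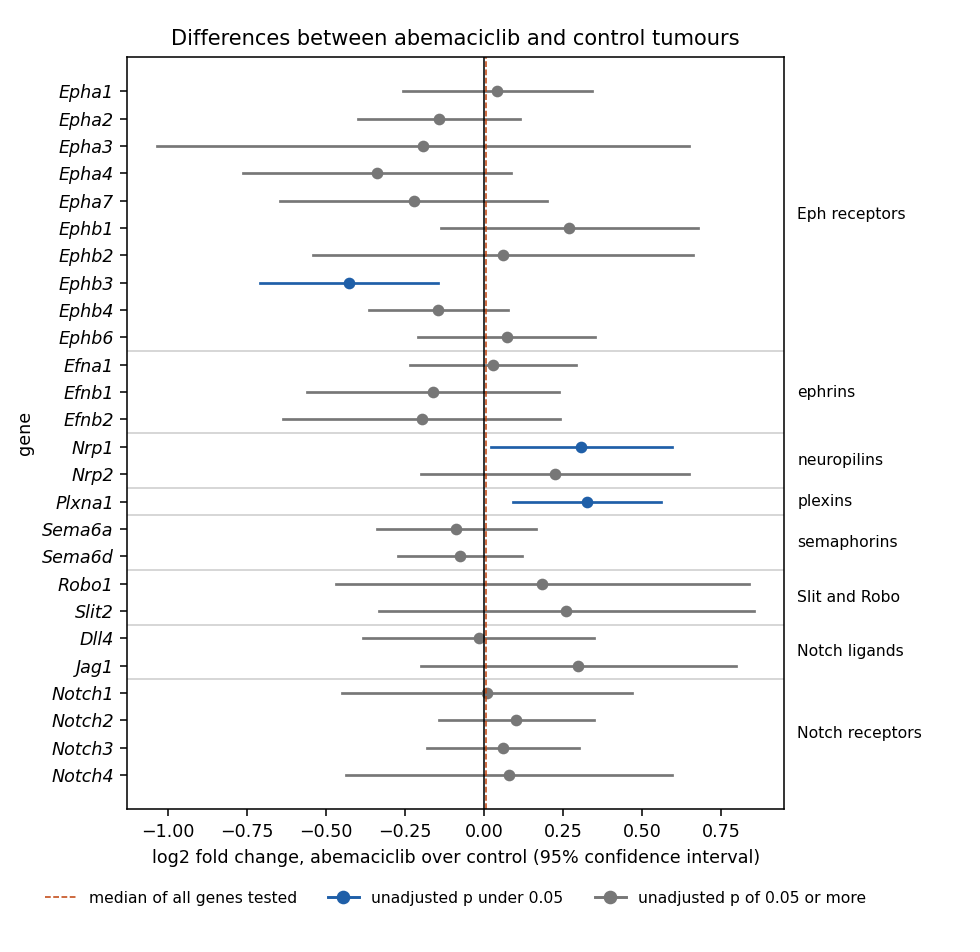
Log2 fold change of abemaciclib over control tumours with its 95% confidence interval from edgeR for the 26 tested genes, by family. The dashed line is the median of all genes tested, at 0.01, and the intervals of Ephb3, Nrp1 and Plxna1 alone lie off 0, before adjustment.

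The semaphorin receptors gave both genes that were higher at an unadjusted p under 0.05. Plxna1, the plexin that carries the signal of neuropilin-bound semaphorins and of Sema6d, lies at chr6:89316314-89362620. It ran from 88.1 CPM through 147 to 185 CPM in control tumours and from 133 CPM through 182 to 254 CPM under abemaciclib. In 10 of 12 abemaciclib tumours Plxna1 exceeded the control median, and in 5 it exceeded every control tumour. The difference was 0.33 (SE 0.11, 95% confidence interval 0.09 to 0.56), with an unadjusted p of 0.009 and an adjusted p of 0.190 by edgeR, and adjusted p-values of 0.116 by DESeq2 and 0.111 by limma-voom. Nrp1, a co-receptor for class 3 semaphorins and for VEGF-A that is found on endothelium and on some macrophages, lies at chr8:128358604-128503363. It ran from 78.9 CPM through 108 to 146 CPM in control tumours and from 83.7 CPM through 130 to 205 CPM under abemaciclib. The ranges overlapped widely, with 9 of 12 abemaciclib tumours above the control median and 4 above every control tumour. The difference was 0.31 (SE 0.14, 95% confidence interval 0.02 to 0.59), with an unadjusted p of 0.037 and an adjusted p of 0.326 by edgeR. Without abemaciclib tumours 3 and 10, at 97.5 and 83.7 CPM, Nrp1 was at 0.39 (adjusted p = 0.112) by edgeR and 0.41 (adjusted p = 0.0440) by limma-voom, against 0.33 (adjusted p = 0.184) by limma-voom with all tumours. Both left-out values lie below the abemaciclib median of 130 CPM, so leaving them out raises the difference in any case. Scaling to library totals alone moved the median of all genes to -0.12, and there Plxna1 was at 0.20 and Nrp1 at 0.15. The macrophage markers moved with Nrp1, as given below, and their part in the difference was not tested.

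Nrp2, the neuropilin of lymphatic endothelium, ran from 30.1 CPM through 62.5 to 167 CPM in control tumours and from 44.4 CPM through 78.1 to 102 CPM under abemaciclib. Although 11 of 12 abemaciclib tumours lay above the control median, all lay within the control range, and the difference was 0.22 (SE 0.21, adjusted p = 0.673). It was 0.44 (adjusted p = 0.248) without control tumour 8, which held the highest value. The semaphorins, ligands of these receptors, lay closer to 0. Sema6a, a membrane-bound semaphorin, was at 37.5 to 73.8 CPM and 31.6 to 57.8 CPM, a difference of -0.09 (95% confidence interval -0.34 to 0.16). Sema6d, a membrane-bound ligand of Plxna1, was at 42.3 to 70.5 CPM and 44.7 to 61.5 CPM, a difference of -0.08 with the narrowest interval of the 26, -0.27 to 0.12. Sema3b, the only secreted semaphorin of the panel, had at most 34 counts in any tumour.

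For Slit and Robo the 2 genes on the panel are ligand and receptor of each other, and neither difference stood out from the spread. Slit2, the secreted ligand, ran from 6.35 CPM through 15.3 to 34.7 CPM in control tumours and from 8.65 CPM through 20.2 to 46.2 CPM under abemaciclib. The difference was 0.26 (SE 0.29, adjusted p = 0.736), and 1 abemaciclib tumour exceeded the control range. Robo1, its receptor, ran from 1.89 CPM through 9.07 to 20.3 CPM and from 2.57 CPM through 10.2 to 19.7 CPM, a difference of 0.18 (SE 0.32, adjusted p = 0.849). Without tumours 3 and 10, Robo1 was at 0.01 by edgeR and -0.18 by limma-voom, which gave 0.02 with all tumours.

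Among the Notch ligands, Jag1 had a positive difference that went with 2 tumours. Jag1 ran from 38.4 CPM through 64.6 to 107 CPM in control tumours and from 45.4 CPM through 62.5 to 202 CPM under abemaciclib. Tumours 3 and 10 were at 202 and 173 CPM, and no other abemaciclib tumour exceeded the control range. The difference was 0.30 (SE 0.24, adjusted p = 0.635), and without those 2 tumours it was -0.11 (adjusted p = 0.778). Dll4, the ligand of sprouting endothelium, ran from 15.8 CPM through 18.6 to 27.5 CPM and from 11.3 CPM through 19.1 to 40.4 CPM. Its abemaciclib tumours spread to both sides, 4 below and 1 above every control tumour, around a difference of -0.02 (SE 0.18). Dll1 had at most 19 counts and Dll3 at most 2 counts in any tumour.

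The 4 Notch receptors were all tested and all lay near 0, with differences from 0.01 to 0.10. Notch2 ran from 126 CPM through 135 to 183 CPM in control tumours and from 106 CPM through 171 to 221 CPM under abemaciclib, a difference of 0.10 (95% confidence interval -0.15 to 0.35). Its abemaciclib tumours were the more scattered, with 4 above and 3 below every control tumour. Notch3, the receptor of pericytes and of part of the luminal epithelium, ran from 70.7 CPM through 96.4 to 158 CPM and from 88.6 CPM through 100 to 124 CPM, a difference of 0.06 (95% confidence interval -0.18 to 0.30). Notch4, the endothelial receptor, was at 8.78 to 65.4 CPM and 17.2 to 59.0 CPM, a difference of 0.08 (SE 0.25). Notch1 was at 3.08 to 14.6 CPM and 4.64 to 11.2 CPM, a difference of 0.01 (SE 0.22). With library totals alone all 4 had negative values, from -0.11 to -0.01, under a scaling that moved the median of all genes to -0.12.

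Genes of the Notch pathway outside the families were read beside the receptors, in 2 sets. Of 21 tested genes for receptor processing, ligand activity and transcription, 13 were positive and 8 negative, with a median of 0.04 and none at an unadjusted p under 0.05. The smallest p-values there belonged to Pofut1 at 0.21 and Lfng at 0.34, which add and extend sugars on Notch receptors, and to Dtx2, a Deltex ubiquitin ligase, at -0.21 (adjusted p by edgeR 0.453, 0.472 and 0.595). Of 10 tested Notch target genes, 0 were positive and 10 negative, with a median of -0.15, where 48.9% of all genes tested were negative. Only 1 of these reached an unadjusted p under 0.05: Hey1, a transcriptional repressor, ran from 169 CPM through 222 to 330 CPM in control tumours and from 46.0 CPM through 171 to 278 CPM under abemaciclib. Of the 12 abemaciclib tumours, 10 were below the control median for Hey1, and the difference was -0.52 (SE 0.23, adjusted p = 0.292 by edgeR). By limma-voom Hey1 was at -0.71 (adjusted p = 0.0401). The targets Bcl2 at -0.14 and Myc at -0.11 had adjusted p-values of 0.616 and 0.705, and Hes1 was set aside for low counts, at a median of 0.77 CPM in control tumours and 1.39 CPM under abemaciclib. Several of these targets, among them Myc and Ccnd1, have many other regulators.

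Guidance genes outside the symbol rule were read in the same way. Of 6 other cues and receptors tested, 4 were positive and 2 negative and none reached an unadjusted p of 0.05, with Flt4 at 0.31, Met at 0.19 and Ntn1 at 0.18 nearest to it. Of 33 tested effectors that act inside the cell, 18 were positive and 15 negative, with a median of 0.02. Rac2, the Rac GTPase of blood cells, was at 42.1 to 104 CPM in control tumours and 65.9 to 149 CPM under abemaciclib, all 12 of which exceeded the control median, a difference of 0.41 (SE 0.15, adjusted p = 0.213). Rras, a GTPase that plexins switch off, was at -0.24 (SE 0.11, adjusted p = 0.288). Tiam1, an activator of Rac, was at -0.46 (SE 0.20, adjusted p = 0.301). Those 3 had an unadjusted p under 0.05 by edgeR, and no effector passed after adjustment.

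How the 26 genes varied from tumour to tumour was described by their correlation, within each group apart, with 5 scores. A score is the mean log2 CPM of a marker list, each gene centred on its own mean. The lists stood for luminal epithelium, endothelium, fibroblasts and perivascular cells, macrophages and dividing cells. Pearson's r and Spearman's rho were tested by two-sided permutation tests with 100000 resamples, and p-values were adjusted over all 29148 relations of genes to scores in both groups. Of the 260 relations of the 26 genes, 5 passed the threshold in 1 group. None of the 26 passed it with the same score in both groups. Of all genes, at most 1.55% did so for any score, the share for dividing cells, so this is not read as particular to the 26.

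Of these relations, 3 were to the dividing-cell score in abemaciclib tumours. Efnb1 followed it with r = 0.84 (rho 0.87, adjusted p = 0.0465 and 0.0519, permutation test), Efnb2 with r = 0.84 (rho 0.87, adjusted p = 0.0470 and 0.0477, permutation test) and Ephb6 with r = 0.84 (rho 0.86, adjusted p = 0.0498 and 0.0544, permutation test). That is 3 of 26 genes, where 9.41% of all genes tested passed, so the count is near the background. In control tumours r was 0.06, 0.02 and 0.24, and 0 of 26 genes passed, beside 2.37% of all genes; the difference in r between the groups was not tested. The score spread more widely under treatment, from -2.42 to 1.32 against -0.36 to 1.92 in control tumours. Leaving out the 2 tumours farthest from the median score, abemaciclib tumours 2 and 10, gave r = 0.86 for Efnb1, 0.76 for Efnb2 and 0.83 for Ephb6. Without tumours 3 and 10 r was 0.76, 0.71 and 0.79 and none of the 3 passed (adjusted p = 0.178, 0.228 and 0.153, permutation test over 10 tumours). With DESeq2 size factors in place of TMM, Ephb6 no longer passed, while Efnb1 and Efnb2 did. Jag1 and Nrp2 had r of 0.72 and 0.66 with this score in abemaciclib tumours and 0.63 and 0.66 in control tumours, all short of the threshold.

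**Figure D3:**
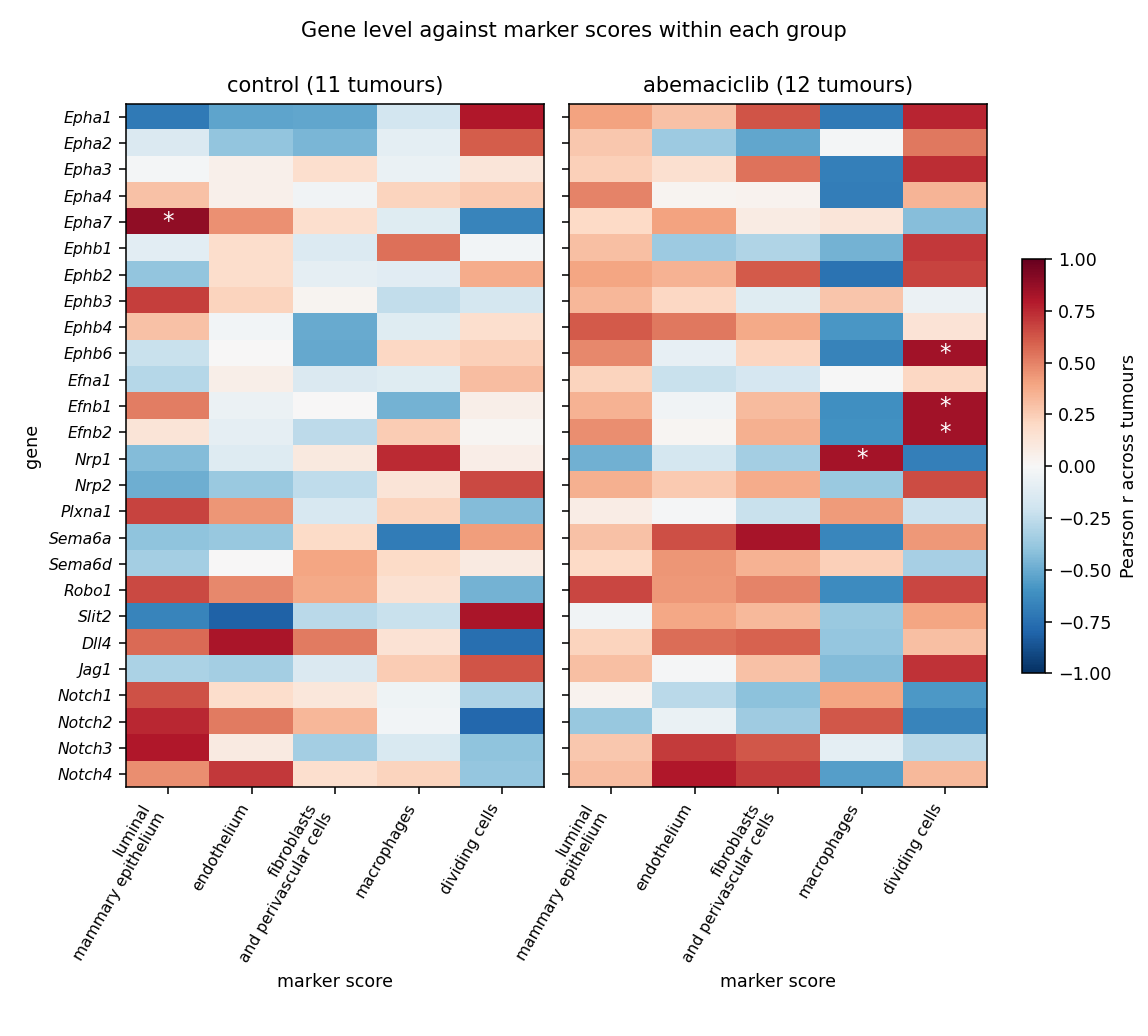
Pearson r across tumours between the log2 level of each of the 26 genes and 5 marker scores, in control (left) and abemaciclib tumours (right). Asterisks mark the 5 relations with an adjusted p under 0.05, of which 3 are to the dividing-cell score under abemaciclib.

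Nrp1 followed the macrophage score in abemaciclib tumours with r = 0.83 (rho 0.84, adjusted p = 0.0483 and 0.0650, permutation test), as 1 of 26 genes beside 1.27% of all genes. In control tumours it had r = 0.75 (rho 0.75, adjusted p = 0.132 and 0.167, permutation test), where 0 of 26 passed beside 0.137% of all genes. Without the 2 tumours farthest from the median score, r was 0.68 in abemaciclib and 0.52 in control tumours. Without tumours 3 and 10 it was 0.82 and no longer passed (adjusted p = 0.120, permutation test). Epha7 followed the luminal score in control tumours with r = 0.89 (rho 0.93, adjusted p = 0.0236 and 0.0271, permutation test), as 1 of 26 beside 4.8% of all genes. In abemaciclib tumours its r was 0.20, and 0 of 26 passed there, beside 0.103%. The endothelial score gave 0 of 26 in both groups, beside 0.24% of all genes in control and 0.755% in abemaciclib tumours, and the score of fibroblasts and perivascular cells gave 0 of 26, beside 0.172% and 1.03%. Short of the threshold, the genes nearest to the endothelial score were Dll4 with r = 0.82 in control and 0.56 in abemaciclib tumours, and Notch4 with 0.71 and 0.80.

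**Figure D4:**
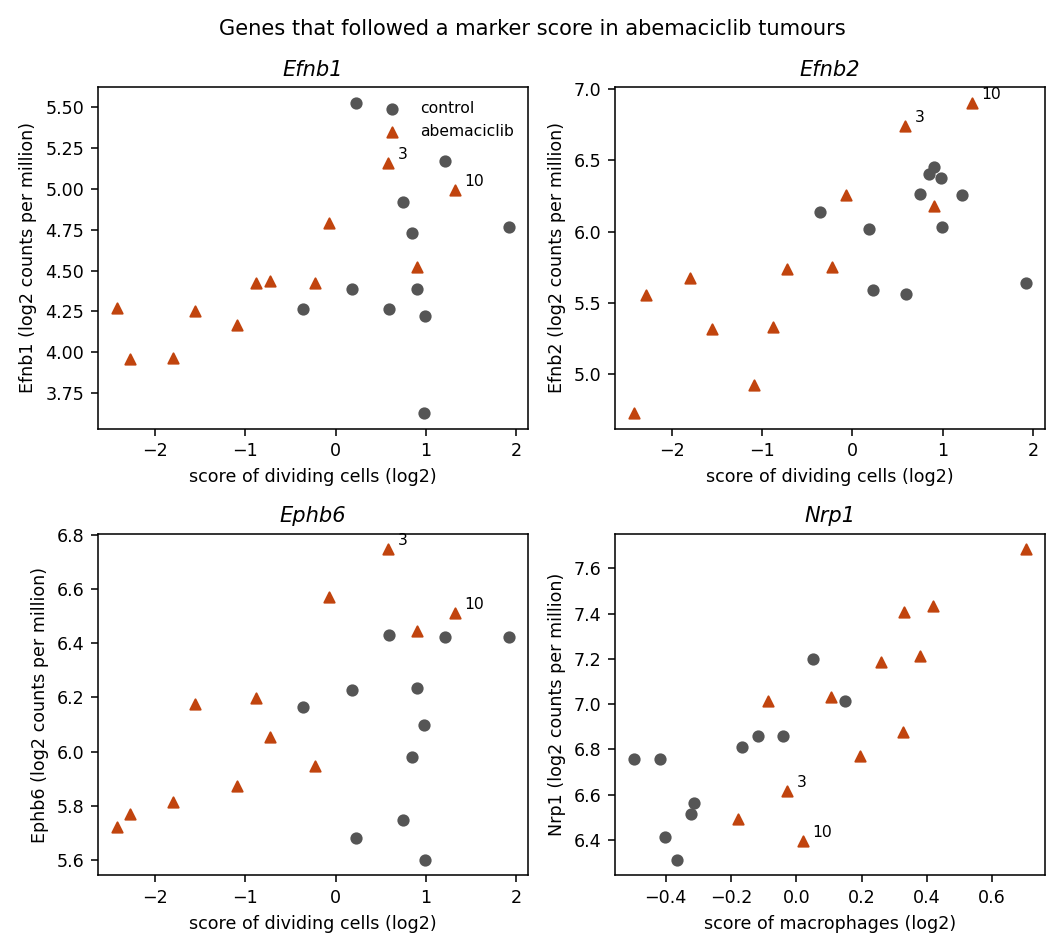
Log2 CPM of Efnb1, Efnb2 and Ephb6 against the dividing-cell score, and of Nrp1 against the macrophage score. Each point is 1 tumour (circles control, triangles abemaciclib), and abemaciclib tumours 3 and 10 are numbered. The first 3 genes rise with the score among triangles and show no such slope among circles, while Nrp1 slopes the same way in both groups.

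Ligands were also set against their own receptors across tumours. The ligands Efna1, Efnb1, Efnb2, Jag1, Dll4, Sema6d and Slit2 gave 27 pairs and 54 relations over the 2 groups, of which 1 passed after adjustment over the 40936 relations of these ligands to all genes; of the latter 0.264% passed. That relation was Efnb1 with Ephb6, its receptor, in abemaciclib tumours (r = 0.90, rho 0.87, adjusted p = 0.0435 and 0.0832, permutation test), and r was 0.83 without tumours 3 and 10, the farthest for Efnb1. For Efnb1 in that group the background was higher than the pooled share: 40 of 2924 genes (1.37%) passed. In control tumours r was -0.18. Efnb2 and Ephb2 had r = 0.86 in abemaciclib and 0.14 in control tumours. Dll4 and Notch4 had r of 0.73 in abemaciclib and 0.79 in control tumours (adjusted p = 0.130 and 0.0794, permutation test). Other Notch pairs differed from this. Dll4 and Notch2 had r of -0.61 in abemaciclib and 0.68 in control tumours, and Jag1 and Notch2 had r of -0.40 and -0.56. Over all 54 relations, 35 were positive. Slit2 and Robo1 had r of 0.20 and -0.40, and Sema6d and Plxna1 had r of 0.24 and -0.52. Genes of 1 tumour share its library and its mixture of cells, and the part of either in these relations was not tested.

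The promoters of Efnb1, Efnb2 and Ephb6 are shown because each of these 3 genes passed the threshold with the dividing-cell score in abemaciclib tumours. They come from RefSeq on GRCm38.p6, as the 250 bases before the RefSeq start, 5′ to 3′ on the gene's strand, and 28 of the 31 genes had an entry. As for Ephb3, the window of Ephb6 overlaps the gene's GENCODE position. Capitals mark matches on either strand to GCGGGAA, a core of E2F sites, to TTTGAA, the core of the cell cycle homology region, and to TGGGAA, the core bound by RBPJ, none of which overlap each other here.

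Efnb1 (chrX:99135811-99136060, + strand): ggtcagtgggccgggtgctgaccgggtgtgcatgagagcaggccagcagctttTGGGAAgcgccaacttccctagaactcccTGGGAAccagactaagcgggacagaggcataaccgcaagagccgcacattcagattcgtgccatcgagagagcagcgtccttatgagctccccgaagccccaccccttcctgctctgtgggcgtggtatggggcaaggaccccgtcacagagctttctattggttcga

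Efnb2 (chr8:8661243-8661492, - strand): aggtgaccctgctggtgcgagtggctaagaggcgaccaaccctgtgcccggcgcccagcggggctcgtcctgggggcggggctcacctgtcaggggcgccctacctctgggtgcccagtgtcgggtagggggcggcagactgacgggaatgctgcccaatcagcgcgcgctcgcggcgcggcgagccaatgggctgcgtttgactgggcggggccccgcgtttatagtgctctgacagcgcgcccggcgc

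Ephb6 (chr6:41605261-41605510, + strand): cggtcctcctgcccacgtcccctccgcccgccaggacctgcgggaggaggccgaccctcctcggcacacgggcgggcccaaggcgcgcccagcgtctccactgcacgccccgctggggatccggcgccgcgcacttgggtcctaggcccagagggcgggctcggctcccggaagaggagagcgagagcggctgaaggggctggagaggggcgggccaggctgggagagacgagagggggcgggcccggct

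Neither the E2F-type nor the cell cycle homology core was found in these 3 windows, and Efnb1 held the RBPJ-type core in 2 places. Over all 32851 promoters of that length, 3.82% held the E2F-type core, 16% the cell cycle homology core and 21.6% the RBPJ-type core. Of the 32 windows listed for the genes described here, 2 held the first (Notch2 and Nrp1), 3 the next (Dll1, Epha2 and Sema6d) and 5 the RBPJ-type core, which lay at Efnb1, Epha4, Epha7 and Sema6d. Their GC content was 60% for Efnb1, 72% for Efnb2, 76.8% for Ephb6 and 65.6% for Ephb3, beside a median of 52.4% over all promoters. A match of this length is a description of the sequence and not a site of binding.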

How the data were processed

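Gene expression was read in 23 tumours on a custom Ion AmpliSeq panel from total RNA, per the labels' protocols. The authors deposited whole-number read counts for each gene, not normalized, and the submitters' processing notes name mm10 as the build. The aligner, the counter and the amplicon positions were not named in these sources. Without molecular identifiers, PCR copies are part of the counts. Groups came from the sample titles.

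Counts were fitted with edgeR 4.0.16 in R 4.3.3 over all 23 tumours: filterByExpr kept 2925 genes and set 901 aside, libraries were scaled by TMM, and glmQLFTest was two-sided with Benjamini-Hochberg adjustment at 0.05. DESeq2 1.42.0 and limma 3.58.1 (voom with quality weights) were alternatives, with other scalings, filters, a replicate block and left-out tumours. Scores used log2 CPM with a prior count of 2. The fit was tested on simulated data. It recovered 33 of 67 genes changed 1.5-fold, 58 of 67 changed 2-fold and 65 of 66 changed 4-fold, and called 6 of 2711 unchanged genes. Differences of 1.5-fold were thus often missed. Between libraries, Spearman correlations were 0.934 to 0.990 over 253 pairs. Positions are from the GENCODE annotation of GRCm38.

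The genes, lists and tests were chosen with earlier results of these data known. The relations of ligands to receptors and the limma-voom fits without single tumours were added after seeing the data. Genes named individually were the 12 with the smallest p, the leading ones of each family, those called by any tool, up to 3 per pathway list and a fixed set that includes all Notch receptors and Hey1; Epha1, Epha3, Ephb2 and Ephb6 were added to account for every gene.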

Additional observations from a re-analysis of the deposited data

How the results depend on the processing

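By edgeR, 0 of the 26 genes were called under every other scaling and filter, with robust empirical Bayes, without abemaciclib tumours 3 and 10, with each tumour left out and with the tumour number as a replicate block (0 of all panel genes and 0 of the 26 called). Limma-voom called 1 with all tumours, 0 to 2 with each tumour left out and 3 without tumours 3 and 10. All panel genes called were 0 in the reported fit, 1 with library totals alone, 60 by DESeq2, 127 by limma-voom, 93 without tumours 3 and 10 and 0 to 47 with each tumour left out. Member relations to the scores numbered 5 in the reported setting and with a prior count of 0.5, 4 with DESeq2 size factors, which lost Ephb6 with dividing cells, and 1 without tumours 3 and 10. The labels do not say whether the numbers pair the tumours. Deviations of same-numbered tumours from their group means correlated at over 0.1 in 5 of 11 pairs (-0.43 to 0.45). Differently numbered tumours were not set beside them, so this cannot decide whether tumours are paired. Of the 26 genes, 15 kept their sign over up to 34 settings of the comparison and 11 did not, Jag1 at 0.30 and Epha3 at -0.19 among them; of the 15, Robo1 turned by limma-voom to -0.18 without tumours 3 and 10 and to -0.10 without tumour 3. Those turned to Efna1 -0.00432 and Notch1 -0.033 with upper-quartile factors, to Efna1 -0.11, Notch1 -0.11, Notch2 -0.026, Notch3 -0.054, Notch4 -0.013, Epha1 -0.080, Ephb2 -0.042 and Ephb6 -0.043 with library totals, to Epha1 -0.032 and Ephb6 -0.048 by limma-voom, and to Dll4 0.020, Efna1 -0.023, Jag1 -0.11, Epha1 -0.046, Ephb2 -0.27 and Ephb6 -0.046 without tumours 3 and 10. With each tumour left out the ranges were -0.15 to 0.038 for Dll4, -0.076 to 0.14 for Notch1, -0.032 to 0.25 for Notch4, -0.023 to 0.11 for Efna1, -0.045 to 0.089 for Epha1, -0.41 to 0.12 for Epha3 and -0.16 to 0.16 for Ephb2. The cause of these shifts was not tested. Ephb3 kept an unadjusted p under 0.05 in every fit; Plxna1 lost it with library totals alone, and Nrp1 with those, upper-quartile factors, the block, and without control tumour 1, 3, 4 or 6 or abemaciclib tumour 1, 5, 6, 11 or 12. The widest errors were those of Epha3 (SE 0.41), Robo1 (0.32), Ephb2 (0.29) and Slit2 (0.29).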
